A study of Homo sapiens with 4 samples.

Results

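The regions described here lie on chromosomes 14, 17 and 20 of HepG2, an established human liver cancer cell line whose karyotype is known to carry extra copies of these chromosomes. Overlapping peaks (1 bp or more) of the 4 libraries were joined into merged regions, and each merged region on these 3 chromosomes was kept, whatever its values. This gave 9330 of 80551 regions, of which 2963 were on chromosome 14, 3555 on chromosome 17 and 2812 on chromosome 20. The other autosomes, which include chromosomes 2, 6 and 16, also gained in this line, held 67314 regions. Accessible chromatin was profiled by ATAC-seq in 2 untreated control libraries and in 2 libraries of cells given 5 µM tazemetostat, an inhibitor of the histone methyltransferase EZH2, for 48 h, with 50000 cells per library. All 4 libraries are of the same cell line, and the labels do not say whether replicates were separate cultures, so the spread between them may be technical. Copy number was not measured in these libraries, and the karyotype stands here only as the reason for the choice of chromosomes.

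In ATAC-seq a transposase cuts DNA that is not covered by nucleosomes and leaves sequencing adapters there, so reads pile up at active promoters and enhancers. The number of reads over a site depends both on how open it is and on how many copies of it a cell holds, since every copy can be cut. EZH2 is the catalytic subunit of polycomb repressive complex 2, which methylates lysine 27 of histone H3 at silent genes, and its inhibition removes that mark. Chromosome 14 carries the alpha-1 antitrypsin and FOXA1 genes, chromosome 17 the HOXB cluster, and chromosome 20 the hepatocyte regulators HNF4A and FOXA2.

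The control libraries had 17.2 M and 23.8 M mapped tags and the tazemetostat libraries 19.8 M and 26.6 M. Their lists held 26133, 34768, 55313 and 54157 peaks in the same order, of which 3393, 4006, 6213 and 5838 lay on chromosomes 14, 17 and 20. Of 8 hepatocyte marker genes, 6 had a region at a transcription start in all 4 libraries, while ALB and AFP had none at a start in any library. None of 6 markers of blood, stromal and endothelial cells had a region at a start, although PECAM1, on chromosome 17, had 12 regions within 10 kb of the gene.

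Windows of 200 bp from the centres of regions outside promoters show what the members look like in sequence, read from the forward strand of hg38. They are the regions of chromosomes 17 and 20 with the largest rise in tag count under tazemetostat, and regions with a peak in each tazemetostat library and none in the controls that held recognition motifs. Capitals mark matches on either strand to short motifs of FOXA (TGTTTAC), AP-1 (TGANTCA) and C/EBP (TTGCNNAA) factors. The first, chr17:65516041-65516240, is intergenic, 42589 bp from the nearest coding start, that of AXIN2, a negative regulator of Wnt signalling. The second, chr20:11792587-11792786, is intergenic, 98037 bp from BTBD3. The third, chr20:62955649-62955848, lies in an intron of SLC17A9, a vesicular nucleotide transporter. The last, chr14:35365590-35365789, is 38090 bp from NFKBIA, the inhibitor of NF-kappa-B.
AXIN2 side: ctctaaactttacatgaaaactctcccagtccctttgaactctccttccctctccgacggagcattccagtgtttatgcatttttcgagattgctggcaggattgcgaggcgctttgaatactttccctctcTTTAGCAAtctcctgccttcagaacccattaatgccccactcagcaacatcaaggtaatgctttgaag
BTBD3 side: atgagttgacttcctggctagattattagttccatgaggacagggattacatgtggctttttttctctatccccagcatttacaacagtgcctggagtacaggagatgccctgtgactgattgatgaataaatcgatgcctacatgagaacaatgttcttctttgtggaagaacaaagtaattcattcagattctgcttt
SLC17A9 intron: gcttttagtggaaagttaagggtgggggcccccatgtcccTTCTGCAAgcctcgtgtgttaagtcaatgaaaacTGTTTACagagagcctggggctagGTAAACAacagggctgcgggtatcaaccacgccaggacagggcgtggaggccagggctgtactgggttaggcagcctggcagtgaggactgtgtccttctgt
NFKBIA side: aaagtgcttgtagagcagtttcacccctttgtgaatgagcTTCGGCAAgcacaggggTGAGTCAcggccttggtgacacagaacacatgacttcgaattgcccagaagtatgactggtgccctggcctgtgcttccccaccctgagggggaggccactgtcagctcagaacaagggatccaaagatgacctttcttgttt

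The NFKBIA region had 45.9 and 39.2 tags per 10 M mapped tags under tazemetostat and no control peak. The SLC17A9 window held 2 FOXA matches and a C/EBP match, the NFKBIA window an AP-1 and a C/EBP match, and the AXIN2 window a C/EBP match. The BTBD3 window held none of these letters, which says nothing of the factors themselves. In the central 200 bp of all member regions, the FOXA letters were present in 5.91% (95% Wilson interval 5.45 to 6.40%), against 6.55% (6.37 to 6.74%) on the other autosomes. The C/EBP letters were present in 8.48% (7.93 to 9.06%) against 9.60% (9.38 to 9.83%). The AP-1 letters were present in 8.05% against 8.40%, and the SP/KLF letters GGGCGGG in 9.69% against 9.72%. The HNF4 motif CAAAGTNCA, with N as C or T, was present in 2.29% against 2.34%, and a CTCF motif in 4.32% against 4.46%. Neighbouring regions are not independent, and these intervals cover counting error only.

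The chromosomes were compared first by how densely they carry accessible regions. Merged regions numbered 39.3 per Mb of sequenced bases on chromosomes 14, 17 and 20 together, against 26.7 per Mb on the other autosomes. The 3 chromosomes differed among themselves, with 32.7 per Mb on chromosome 14, 42.9 on chromosome 17 and 43.98 on chromosome 20. These were ranks 8, 4 and 3 of 22 autosomes. Gene-dense chromosomes 19 and 22 lay higher, at 48.1 and 46.0 per Mb, and chromosome 4 was lowest at 14.9. Across the 22 autosomes region density followed coding genes per Mb (Pearson r = 0.76, Spearman rho = 0.80), as a description of chromosomes that share the same libraries. It followed GC content more closely (Pearson r = 0.90, Spearman rho = 0.83). In GC content chromosomes 14, 17 and 20 ranked 12, 3 and 5. Per coding gene there was no excess over all other autosomes, with 3.97 regions per gene on the 3 chromosomes and 4.02 on the others. The others without the also gained chromosomes 2, 6 and 16 had 3.72, so this reading depended on the comparison. Chromosome 20 had 5.15 regions per coding gene, chromosome 14 had 4.81 and chromosome 17, which has 1186 coding genes, only 3.00.

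**Figure D1:**
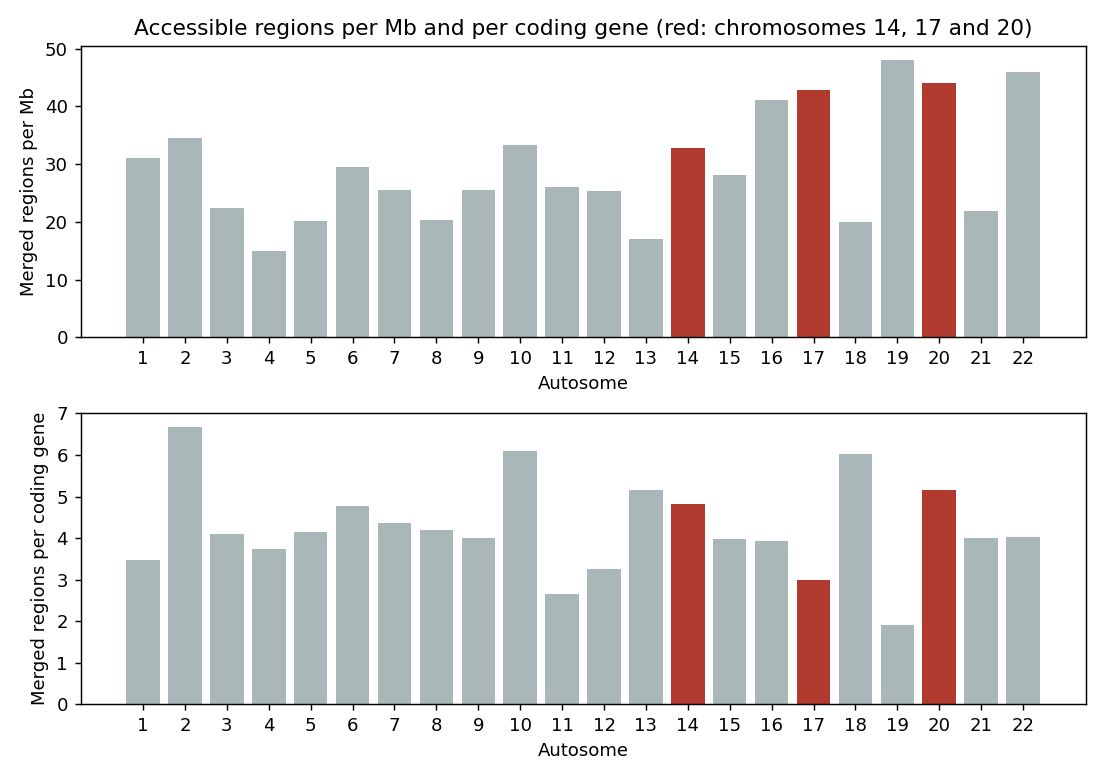
Merged regions per Mb of sequenced bases (top) and per protein-coding gene (bottom) for each autosome, with chromosomes 14, 17 and 20 in red. Chromosomes 17 and 20 stand at 42.9 and 43.98 regions per Mb, below chromosomes 19 and 22, and per coding gene chromosome 17 falls to 3.00.

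The per-Mb excess was present in each library. Peaks per Mb on the 3 chromosomes numbered 14.3, 16.9, 26.2 and 24.6 in control replicates 1 and 2 and tazemetostat replicates 1 and 2, the order kept for every set of 4 values here, against 8.61, 11.6, 18.4 and 18.1 on the other autosomes. The ratio of the 2 was thus 1.66 and 1.45 in the controls and 1.42 and 1.36 under tazemetostat, and averaged 1.47 ± 0.13 (SD, n = 4). All 4 libraries were above 1, with the less deeply sequenced control highest. Against the autosomes nearest to each of the 3 chromosomes in coding genes per Mb (15 and 9, 22 and 16, 1 and 12), the ratio fell to between 1.20 and 1.40. Per coding gene it was 1.12, 0.979, 0.956 and 0.913, on both sides of 1. The 3 chromosomes held 13.5, 12.1, 11.8 and 11.3% of autosomal peaks, with groups that did not overlap and a difference of -1.22 percentage points (exact two-sided permutation p = 0.333, the smallest that 2 libraries against 2 can give). The same smallest p applies to every comparison of group means here. With 26133 peaks taken from each library the difference was -0.0608 points, and without control replicate 1 it was -0.486.

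The density excess depended on how far a peak stood above its surroundings. The peak caller compares each peak with the 10 kb around it, and the median of that local fold over all peaks was 5.25, 5.06, 5.39 and 5.18 on the 3 chromosomes, against 6.04, 5.71, 6.13 and 5.77 on the others. Peaks with a local fold of at least 8 made up 18.1, 15.0, 21.2 and 16.9% of member peaks and 31.0, 26.7, 32.5 and 27.5% of peaks elsewhere. Among those peaks alone, density per Mb was lower on the 3 chromosomes in all 4 libraries, with ratios of 0.970, 0.816, 0.926 and 0.833. Chromosome 20 had the smallest share of such peaks, from 10.4 to 14.6%, and chromosome 14 the largest of the 3, from 20.1 to 29.7%.

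The level around peaks moved the other way. In unstitched peaks of 300 bp, tags divided by the local fold give the background that the caller saw, and its median was 1.798, 1.60, 1.57 and 1.40 tags per 10 M on the 3 chromosomes, against 1.53, 1.35, 1.32 and 1.20 on the other autosomes. The ratio was 1.18, 1.18, 1.19 and 1.17, nearly the same in every library. By chromosome it averaged 1.25 for chromosome 20, 1.22 for chromosome 17 and 1.07 for chromosome 14. Chromosomes 19, 22 and 16 had backgrounds as high, for example 1.96, 1.87 and 1.86 in the first control. Whether copy number, gene density or another property sets this level was not tested.

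**Figure D2:**
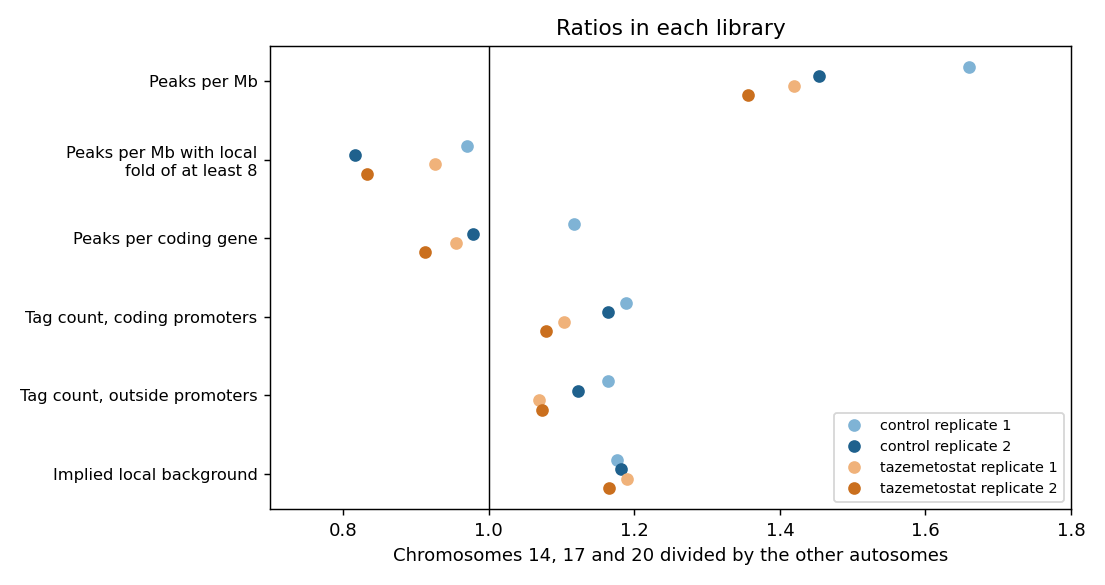
Values on chromosomes 14, 17 and 20 divided by those on the other autosomes, 1 point per library for 6 measures, with a line at a ratio of 1. Peaks per Mb lie from 1.36 to 1.66, but peaks with a local fold of at least 8 lie below 1 in all 4 libraries, and the implied local background lies between 1.17 and 1.19.

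Tag counts were compared at regions with exactly 1 peak in each library, of which 1870 were on the 3 chromosomes and 12961 on the other autosomes. Normalised tag count is the number of tags in the peak per 10 M mapped tags. Its median was 18.6 and 21.8 in the controls and 35.8 and 30.9 under tazemetostat on the 3 chromosomes, against 15.7, 19.3, 32.3 and 28.2 elsewhere. The ratio was 1.18 and 1.13 in the controls and 1.11 and 1.10 under tazemetostat, above 1 in 4 of 4 libraries. Mean ratios of 1.16 ± 0.039 and 1.10 ± 0.0089 (SD, n = 2 each) differed by 0.055 (exact two-sided permutation p = 0.333). Among peaks with a local fold of at least 8 the tag count ratio was 1.09, 1.00, 0.981 and 1.02.

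Coding promoters, within 1000 bp upstream and 100 bp downstream of a start, gave chromosome 20 the highest mean over libraries of all 22 autosomes, followed by chromosomes 2 and 14. Medians on chromosome 20 were 24.4, 31.1, 48.4 and 40.7 over 135 promoters. On chromosome 14 they were 21.8, 25.9, 43.1 and 38.6 over 198 promoters, and on chromosome 17 they were 20.9, 24.8, 39.8 and 33.7 over 280. The other autosomes stood at 18.6, 23.1, 38.8 and 32.8, so chromosome 17 exceeded them by only 1.03 to 1.12 times and chromosome 20 by 1.24 to 1.35 times. Outside promoters chromosome 14 was not above the other autosomes, with ratios of 1.04, 0.953, 0.948 and 0.969, while chromosome 17 ran from 1.09 to 1.21 and chromosome 20 from 1.14 to 1.29. Gene-rich chromosome 19 had promoter medians of 19.8, 24.8, 39.1 and 32.8, so promoter level did not follow gene density across autosomes (r = 0.11 over 22 autosomes).

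**Figure D3:**
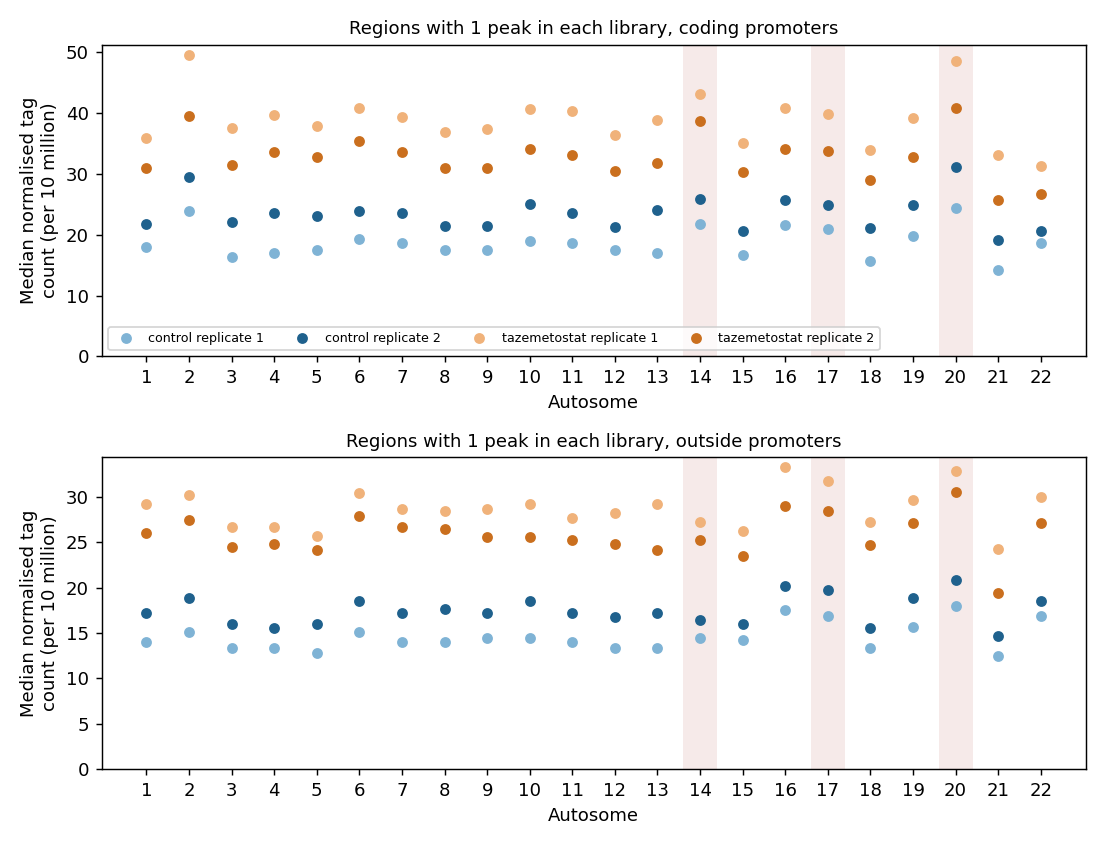
Median normalised tag count per 10 M mapped tags for each autosome and library (colours), at coding promoters (top) and outside promoters (bottom), with chromosomes 14, 17 and 20 shaded. At promoters chromosomes 2 and 20 stand above the rest in each library, and outside promoters chromosome 14 lies among the other autosomes.

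Chromosome 14 was not uniform along its length. Coding promoters between 20 and 30 Mb (39 regions) had medians of 47.1 and 57.1 in the controls and 85.2 and 76.4 under tazemetostat, and those between 30 and 40 Mb (24 regions) had 39.3, 42.1, 69.1 and 59.0. Averaged over libraries, these were the highest and second highest of 209 autosomal windows of 10 Mb with at least 10 such promoters. The highest window on another autosome, chromosome 2 from 130 to 140 Mb, averaged 43.9, against 66.5 and 52.3 here. The 5 such windows of chromosome 14 between 50 and 110 Mb averaged 24.4 to 27.5, below the median of 28.3 over windows of the other autosomes. The windows and the split at 40 Mb were chosen after the values were seen, so no test is given.

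Below 40 Mb, chromosome 14 carried 1150 regions at 48.6 per Mb, and above it 1813 regions at 27.1 per Mb, close to the 26.7 of the other autosomes. The 63 promoters below 40 Mb ranged from 10.3 to 131 in mean tag count with quartiles of 39.9 and 87.6, and 56 of them exceeded the median promoter of the other autosomes, 28.2. Of 135 promoters above 40 Mb, 59 exceeded it. The ratio to the other autosomes was 2.07 to 2.25 at these promoters below 40 Mb in the 4 libraries but 1.12 to 1.25 outside promoters, and the implied local background was 1.15 to 1.20 times as high. Promoter peaks there had a median length of 716 bp against 605 bp elsewhere, and 86.2 tags per kb against 44.9, so the difference was present per kb of peak too. Median GC content was 62.5% against 65.5%.

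Among these coding promoters the highest mean count was that of PABPN1, a poly(A)-binding protein, with 97.7, 126.5, 164.3 and 134.4 tags per 10 M. PNN, a splicing factor, had 84.9, 108.8, 150.2 and 123.8. A region at a start of NRL, a photoreceptor transcription factor, had 51.8, 112.6, 173.3 and 151.3. ACIN1, an RNA-processing protein, had 79.1, 97.9, 137.1 and 113.7, and the arginine methyltransferase PRMT5 had 78.5, 89.5, 137.6 and 113.7. These 5 were named after their values were seen. A BRMS1L region below 40 Mb, given further on, had a higher mean. Its centre lay 185 bp inside the gene, past the 100 bp allowed for coding promoters. At 24 to 25 Mb, the 1 Mb with 43 coding genes such as PCK2, PSME1, PSME2, IRF9 and RIPK3 held 90 regions, against a median of 32.5 per 1 Mb on chromosome 14.

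On chromosome 20, promoters above 30 Mb had medians of 27.9, 34.9, 54.4 and 44.8 (73 regions) and those below it 22.4, 26.5, 41.6 and 32.8 (62 regions), and the local background was 2.03, 1.87, 1.87 and 1.65 against 1.73, 1.46, 1.43 and 1.33. Above 30 Mb both promoters and other regions exceeded the other autosomes, by 1.37 to 1.51 times and 1.29 to 1.49 times. Promoter level did not step at 30 Mb. The promoter windows from 20 to 60 Mb averaged 38.1, 42.8, 38.1 and 36.1, and those from 0 to 20 Mb 30.1 and 29.65. The window from 20 to 30 Mb held 14 promoters. The split at 30 Mb was not planned, so no test is given. On chromosome 17 the window from 70 to 80 Mb had the highest mean of 256 autosomal windows outside promoters, 34.2 against 33.8 for the next, on chromosome 10, with medians of 23.6, 28.2, 44.8 and 40.3 over 58 regions. By library the chromosome 17 window ranked 3, 2, 2 and 1, and the chromosome 10 window held only 10 regions. The densest 1 Mb of chromosome 17, from 43 Mb, held 104 regions around BRCA1, NBR1 and ETV4, and that of chromosome 20, from 50 Mb, held 75 around CEBPB and PTPN1.

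**Figure D4:**
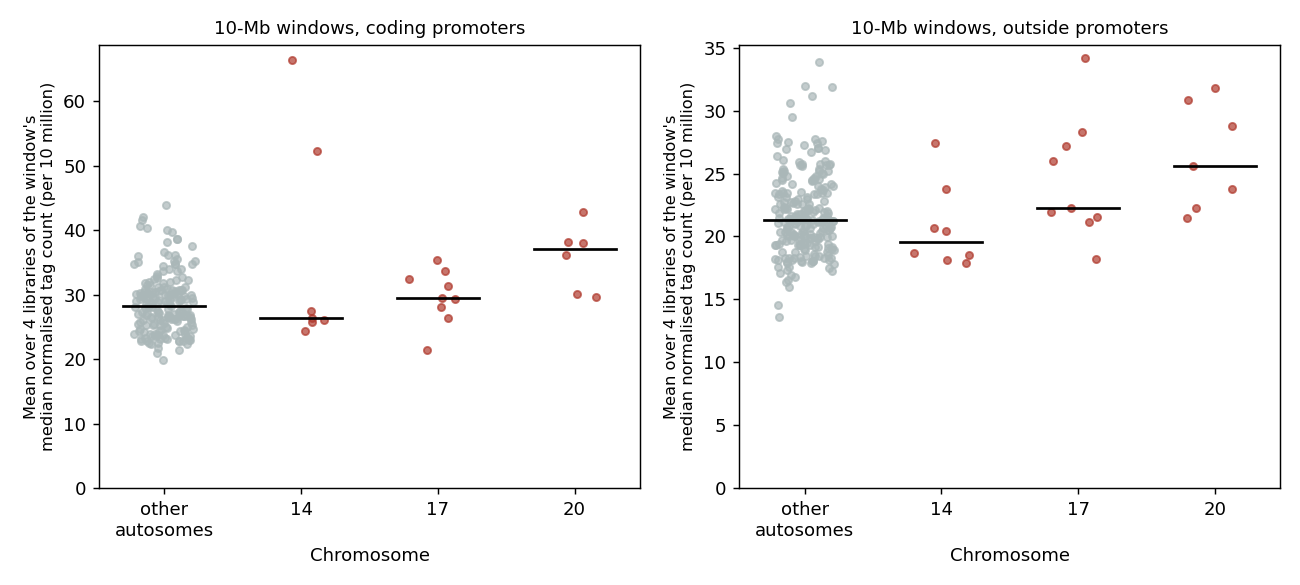
Each point is 1 window of 10 Mb, placed by the mean over 4 libraries of its median normalised tag count, for coding promoters (left) and other regions (right), and black lines mark the median window. The 2 points of chromosome 14 at 66.5 and 52.3 stand above every promoter window of the other autosomes, whose highest is 43.9, whereas outside promoters chromosome 14 lies within them.

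Under tazemetostat most member regions had higher tag counts. At the 1870 regions with 1 peak in each library, the median log2 change was 0.66, and 1777 had the higher mean under tazemetostat. Of the 1870, 716 were called higher and 4 lower by limma on log2(normalised tag count + 1) at an adjusted p under 0.05. Over all 15383 regions tested, 42.7% were called higher and 0.247% lower, so the share of members called higher, 38.3%, was below that background. Per kb of peak 539 members were called higher by limma, or 28.8%, against 33.9% on the other autosomes. By chromosome, limma called 242 of 561 regions higher and none lower on chromosome 14. On chromosome 17 it called 291 of 793 higher and 1 lower, and on chromosome 20 183 of 516 higher and 3 lower. The median change was 0.70 over all regions and 0.71 on the other autosomes, so tested regions elsewhere shared most of it. Tags inside peaks numbered 742864 and 1353842 in the controls and 2283279 and 2605603 under tazemetostat. The implied local background did not rise with them. From control to tazemetostat its mean went from 1.70 to 1.49 on the 3 chromosomes and from 1.44 to 1.26 on the other autosomes. With each library centred on its own median no region was called on any chromosome by limma, and 42 member regions passed in the higher direction and 152 in the lower at an unadjusted p below 0.05. Without either one of the tazemetostat libraries the counts higher and lower were also 0, at an unadjusted p below 0.05 they were 315 and 7 without tazemetostat replicate 1 and 672 and 4 without replicate 2. The median change on the 3 chromosomes tracked that of the other autosomes whichever library was left out. It was 0.55 against 0.58 without control replicate 1 and 0.74 against 0.81 without control replicate 2. Without tazemetostat replicate 1 it was 0.55 against 0.62, and without tazemetostat replicate 2 it was 0.78 against 0.80.

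edgeR's quasi-likelihood test with trimmed-mean (TMM) scaling, which sets the bulk of regions to no change, called 2 member regions higher and 20 lower, where the background over all regions was 0.15% and 1.13%. With DESeq2 the counts were 1 and 12 of the 1870 members, and 3 and 103 over all 15383 regions. The split between higher and lower calls therefore turned with the scaling. Of the 20 lower regions 13 were on chromosome 17, 6 on chromosome 20 and 1 on chromosome 14. They included an intron of RPTOR, with 101.8 and 82.4 against 67 and 68.5, and an intron of NXN, with 44.2 and 45.8 against 23.7 and 33.1. An intergenic region of chromosome 17, 674240 bp from the start of WSB1, had 103.5 and 99.2 against 93.2 and 85.8. These 3, chosen after their values were seen, had edgeR log2 changes of -1.15, -1.34 and -0.90 (adjusted p = 0.00304, 0.0052 and 0.0052). None of the 3 was called by limma on tag counts, but per kb of peak the RPTOR region was (log2 change -0.54, limma adjusted p = 0.0457).

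The difference in median change between the 3 chromosomes and the other autosomes was -0.05, and it kept that sign in every fit. It was also negative within each of 5 groups of regions by GC content, from -0.03 to -0.06. Chromosome medians ran from 0.64 on chromosomes 17 and 20 to 0.69 on chromosome 14, inside the range of the other autosomes, 0.59 on chromosome 22 to 0.77 on chromosome 4. Across 22 autosomes the median change was lower where chromosomes were richer in GC (Pearson r = -0.90, Spearman rho = -0.87), again as a description.

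The largest rise was the intergenic region at the AXIN2 side shown above, with 11.6 and 11.8 tags per 10 M in the controls and 71.6 and 42.2 under the inhibitor. Its groups did not overlap, and its log2 change was 2.14 ± 0.31 (SE, limma adjusted p = 0.00191), which was 1.44 above the median of all regions. It was also called by edgeR with TMM scaling (adjusted p = 0.00797), by DESeq2 (adjusted p = 0.0235) and per kb of peak (log2 change 1.19, limma adjusted p = 7.5e-05). The other region called higher with TMM scaling was the promoter of GMPR2, a guanosine monophosphate reductase at 24.2 Mb of chromosome 14, with 22.1 and 31.5 against 77.1 and 83.9 (edgeR adjusted p = 0.0332). Per kb of peak its limma log2 change was 0.48 with an adjusted p of 0.0725.

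A region in an intron of FOXN3, a forkhead repressor, went from 8.73 and 8.4 to 35.3 and 33.1, a log2 change of 1.88 (limma adjusted p = 0.00221). Its called peak was 300 bp long in the controls and 872 and 861 bp under tazemetostat, and per kb the change was 0.45 with an adjusted p of 0.0863. The promoter of AK7, an adenylate kinase of cilia, rose from 8.14 and 9.24 to 43.3 and 26.4. On chromosome 20 a lncRNA promoter 60513 bp from FOXA2 rose from 11.6 and 8.82 to 41.3 and 36.5, with a log2 change of 1.84 (limma adjusted p = 0.00247), and the BTBD3 region rose from 8.14 and 13.0 to 36.8 and 35.8. On chromosome 17 the promoter of the pseudogene AMZ2P1 rose from 6.98 and 18.1 to 41.3 and 38.8. None of these was called with TMM scaling, where adjusted p ran from 0.0533 to 0.246.

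Falls were few. In an intron of the lncRNA LINC01524, 232160 bp from ZFP64, counts went from 14.5 and 24.4 to 7.05 and 9.41, a log2 change of -1.12 (limma adjusted p = 0.0158, edgeR with TMM 0.00679). Its peak was 479 and 766 bp long in the controls and 300 and 391 bp under tazemetostat, and per kb the change was -0.37 and not called (limma adjusted p = 0.155). On chromosome 17 an intergenic region 152991 bp from METRNL had 24.4 and 12.6 against 9.57 and 7.53, a log2 change of -0.97 (limma adjusted p = 0.0277). It was also called by edgeR with TMM scaling (adjusted p = 0.0291) and per kb (log2 change -0.94, limma adjusted p = 0.00129). DESeq2 did not call it (adjusted p = 0.0624). Its local fold was unusually high, at 68.1, 60.6, 24.6 and 49.7. Near CDH4, a cadherin, counts were 24.4 and 23.1 against 8.06 and 18.8, with no call by edgeR with TMM scaling (adjusted p = 0.0679) or per kb (limma adjusted p = 0.0799). The other call, in an intron of RIN2, had 29.7 and 26.1 against 17.1 and 13.6, a log2 change of -0.83 (limma adjusted p = 0.0345, edgeR with TMM 0.00888), with no call per kb (limma adjusted p = 0.0893), and is named after its values were seen. No region on chromosome 14 was called lower by limma.

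**Figure D5:**
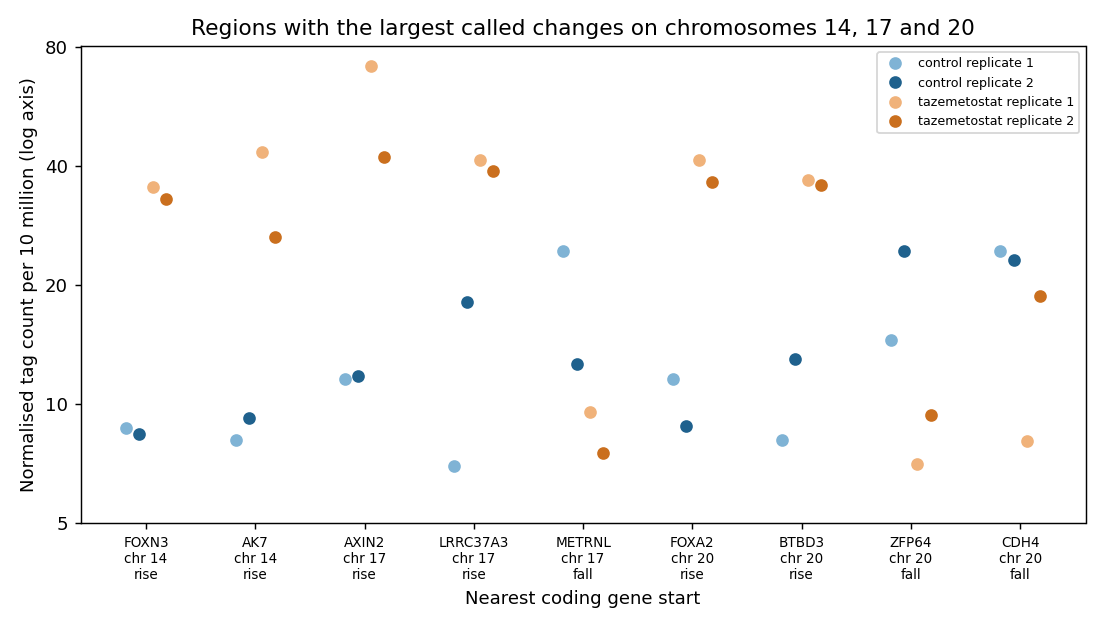
Normalised tag count per 10 M mapped tags (log axis) in each of the 4 libraries for the regions with the largest rises and falls called by limma, labelled by nearest coding start and chromosome. At the AXIN2 side the control points sit at 11.6 and 11.8 and the tazemetostat points at 71.6 and 42.2. The 9 regions were picked by these same values, so the separation of their groups adds no support.

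Of the 3 regions per chromosome with 1 peak in each library and the highest mean counts, 2 were called higher by limma, in an intron of RPTOR and near CYP24A1, and none by edgeR with TMM scaling. An intergenic region of chromosome 14, 2696 bp from JPH4, had 162.3, 120.6, 212.1 and 131.4, with overlapping groups and a limma adjusted p of 0.474. On chromosome 14 a region at a BRMS1L start had 112.8, 121.8, 191.5 and 143.8, and the PABPN1 promoter had the values given above. An intron of CCDC200 on chromosome 17 had 135.5, 150.8, 188.5 and 152.8. The shared promoter of SKA2, a kinetochore subunit, and PRR11 had 89.0, 105.0, 148.7 and 138.9, and an intron of RPTOR, the scaffold of mTOR complex 1, had 68.1, 92.9, 148.7 and 133.6 (limma adjusted p = 0.0373). That region lies apart from the one in the same gene that fell with TMM scaling. On chromosome 20 an intron of the splicing factor gene PRPF6 had 75.6, 70.2, 132.0 and 99.4, and an intron of SLC13A3, a dicarboxylate transporter, had 72.7, 85.3, 105.3 and 90.7. A region 48108 bp from CYP24A1, the vitamin D 24-hydroxylase, had 58.8, 68.5, 107.8 and 108 (limma adjusted p = 0.0447).

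Regions present in one group alone were counted next. Of the 9330 members, 1069 had a peak in each tazemetostat library and none in the controls, or 11.5% (Wilson 10.8 to 12.1%), where the background over all merged regions was 13.7%. The share was 11.5% on chromosome 14, 13.0% on chromosome 17 and 9.42% on chromosome 20, the lowest of all autosomes, while the others ran from 11.1 to 18.2%. When the same number of highest peaks, 26133, was taken from each library, the order turned, with 6.75% on the 3 chromosomes and 5.93% on the others. Control-only regions numbered 55, or 0.589% (0.453 to 0.766%), against a background of 0.449%. The difference from the other autosomes was -2.36 percentage points with all libraries, -4.55 without control replicate 2 and -4.38 without tazemetostat replicate 1. Absence from a list is not a measured 0, since sites below the caller's threshold carry no value.

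Among tazemetostat-only regions the promoter of CENPX, a centromere protein, had 96.8 and 67.8, and that of NR1D1, the circadian repressor REV-ERB alpha, had 89.2 and 49.3. The shared promoter of ZFHX2 and THTPA on chromosome 14 had 83.1 and 57.6, and the TRAPPC6B promoter had 56.9 and 41.8. On chromosome 20 the SLC17A9 intron had 71.1 and 46.7 and a NOL4L intron 59.0 and 51.9. The highest control-only regions were a CCDC200 intron with 66.9 and 39.1, a region at a start of ACSS2, an acetyl-CoA synthetase, with 22.1 and 26.1, and an RNF212B intron with 21.5 and 17.6. ACSS2 also had a shared region at a start.

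Members sat in the same parts of genes as regions elsewhere. Promoters held 20.7% of members and 21.0% of regions on the other autosomes, introns 43.8 and 45.0%, and intergenic sequence 29.1 and 27.97%. Of 2348 coding genes on the 3 chromosomes, 33.8% had a region at a start in all 4 libraries, against 34.1% on the other autosomes. The share was 42.5% on chromosome 14, 33.5% on chromosome 20 and 29.3% on chromosome 17. Of the 735 such genes on the 3 chromosomes whose leading start region was tested, 285 were called higher and none lower by limma, against 2280 higher and 1 lower of 5070 on the other autosomes.

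Genes were followed by list at their starts, with the share of all coding genes given above for comparison. In these lists a gene that rose was called higher by limma, and one that did not pass may still have higher counts. Of all regions tested 42.7% were called higher, and of tested coding starts on the 3 chromosomes 285 of 735, so the list counts are read against these. Of 15 liver transcription factors, 5 had a start region in all 4 libraries, and of the 4 tested 3 rose. HNF4A, the nuclear receptor that maintains hepatocyte identity, had 22.7 and 42.9 in the controls and 66.0 and 56.8 under tazemetostat at a start, a log2 change of 0.95 ± 0.32 (SE, limma adjusted p = 0.0289), 0.25 above the median of all regions. STAT3, which carries interleukin 6 signals, rose by 0.80 from 32 and 43.7 to 81.1 and 53.5 (limma adjusted p = 0.0454). FOXA1, a pioneer factor, had 33.7, 42.9, 58.0 and 57.6 and did not pass. FOXA2 had a start region in 1 tazemetostat library only, with 20.7, and CEBPB had none at a start, with 1 region within 10 kb of the gene. No gene of these lists was called by edgeR with TMM scaling.

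Of 18 secreted plasma protein genes, 10 had a start region in all libraries, and 3 of 8 tested rose. SERPINA1, alpha-1 antitrypsin, had 22.1 and 27.3 against 43.3 and 46.7, a log2 change of 0.85 ± 0.30 (SE, limma adjusted p = 0.0315). APOH, beta-2 glycoprotein I, had 13.4 and 15.5 against 27.7 and 23.7, and VTN, vitronectin, had 24.4 and 40.3 against 76.1 and 53.1. The changes of SERPINA1, APOH and VTN were 0.15, 0.09 and 0.30 above the median of all regions. The asialoglycoprotein receptor gene ASGR1, with 34.3, 39.9, 51.4 and 59.5, and SERPINA10, with 28.5, 38.7, 61 and 46.3, did not pass. IGFBP4 had no region at a start.

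Of 24 genes of glucose and lipid metabolism, 16 had a start region in all libraries, and 5 of 15 tested rose. PCK1, the cytosolic enzyme that commits carbon to gluconeogenesis, had 19.2 and 37.8 against 62.5 and 50.4 (log2 change 1.03, limma adjusted p = 0.0234), and SLC13A5, a citrate transporter, had 13.4 and 13.4 against 35.3 and 26.4 (1.13, limma adjusted p = 0.0129). The mitochondrial form PCK2, on the high segment of chromosome 14, had 40.1, 61.3, 108.8 and 62.9 and did not pass. ACSS2 had 38.4, 59.2, 76.1 and 64.7 and did not pass either. G6PC1, glucose-6-phosphatase, had 9.89, 19.3, 22.2 and 25.2 (limma adjusted p = 0.0674). FASN, fatty acid synthase, had no region at a start.

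Of 12 sulfur amino acid and glutathione genes, 10 had a start region in all 4 libraries, and 4 of 10 tested rose. AHCY, which hydrolyses S-adenosylhomocysteine, had 40.7, 36.1, 69.0 and 51.9 and did not pass (limma adjusted p = 0.0832). GSS, glutathione synthetase, had 36.6, 47.9, 82.6 and 56.5 (limma adjusted p = 0.0684), and the cysteine desulfurase NFS1 had 45.4, 42.9, 62.5 and 44.8. The iron-sulfur assembly gene ISCA2, with 41.3, 47.5, 79.1 and 69.3, just missed the threshold (limma adjusted p = 0.0509). The methylmalonate semialdehyde dehydrogenase ALDH6A1 rose from 45.4 and 56.7 to 105.8 and 77.2, and the cystine exporter CTNS from 18.6 and 29.0 to 46.9 and 38.8.

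Of 15 polycomb subunits and partners, 7 had a start region in all libraries, and 2 of 7 tested rose. EZH1, the paralog of EZH2, had 30.8, 38.7, 51.4 and 36.1, with overlapping groups (limma adjusted p = 0.364). ASXL1, of the deubiquitinase complex that opposes polycomb, had 50.6, 45.8, 64 and 59.1 and did not pass. YY1, a DNA-binding partner, rose from 16.9 and 11.8 to 24.7 and 32.4, and MBTD1 from 22.7 and 29.4 to 69.5 and 40.3. SUZ12, a core subunit of polycomb repressive complex 2, had 9.66 in 1 control and 18.1 and 20.3 under tazemetostat. CBX8, a reader of the mark, and KDM6B, a demethylase of it, were called at a start in the tazemetostat libraries only, with 38.3 and 18.8 and with 24.7 and 26.0. CBX2 had no region at a start.

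Of 44 developmental transcription factors, 34 had no region at a start in any library, where 41.1% of all coding genes on the 3 chromosomes and 39.2% on the other autosomes had none. All 10 HOXB genes, which pattern the body axis, were among them. SOX9, a biliary and progenitor factor, rose from 18.0 and 22.7 to 41.8 and 34.3 (log2 change 0.87, limma adjusted p = 0.0294). SIX4 had 16.3, 14.7, 28.7 and 22.2 and did not pass. TBX4 was called under tazemetostat only, with 34.8 and 27.1, and BCL11B in the controls only, with 8.73 and 7.98.

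Of 33 tumour suppressors and oncogenes, 21 had a start region in all libraries, and 6 of 19 tested rose. ERBB2 had 30.8, 26.5, 53.9 and 31.6 and did not pass. The mitotic kinase gene AURKA, with 61.7, 48.3, 84.2 and 73, and TPX2, which activates that kinase, with 41.9, 52.1, 84.2 and 63.2, did not pass, whereas PPM1D, a phosphatase of the DNA damage response, rose from 26.8 and 51.3 to 76.1 and 64.4 (limma adjusted p = 0.0356). PRKAR1A, a regulatory subunit of protein kinase A, rose from 20.4 and 31.5 to 79.1 and 51.6 (log2 change 1.30, limma adjusted p = 0.0106). Of 17 proteasome subunits, 12 had a start region in all 4 libraries, and 6 of 11 tested rose. Among them PSMC5, an ATPase of the regulatory particle, went from 22.7 and 29.8 to 69.5 and 67.4 (1.36, limma adjusted p = 0.00722). PSMB5, a catalytic subunit, rose from 34.3 and 45.8 to 82.1 and 68.1 (limma adjusted p = 0.0275), and PSMA6 had 48.9, 58.8, 100.8 and 67.8. PSME2, an activator subunit in the high segment of chromosome 14, had 71, 126.5, 199.5 and 158.1, summed over the peaks of its region where a library had more than 1, and was not tested. Of 10 cytosolic ribosomal protein genes, 6 had a start region in all 4 libraries, and 1 of 6 tested rose, RPL36AL. RPS29 had 30.8, 54.2, 51.4 and 48.9, RPL23A had 31.4, 42.9, 55.9 and 48.2, and RPL27 had 39, 28.6, 60 and 50.4. Of 10 imprinted loci, L3MBTL1 alone had a start region in all 4 libraries, with 62.2, 52.5, 86.7 and 80.9 (limma adjusted p = 0.119), while DLK1 and MEG3 had no region at a start. No gene of any list was called lower by limma. SLC13A5, CTNS, YY1, KDM6B, TBX4, BCL11B, PRKAR1A, PSMC5, RPL36AL, DLK1 and MEG3 were named after their values were seen.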

How the data were processed

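Each ATAC-seq library was deposited as a peak list. The labels and methods say that the authors used Trim Galore 0.6.6 for trimming, Bowtie2 2.3.5.1 for alignment to hg38 and HOMER 4.11.1 for peaks, called per library without pooling. Per the file headers a peak needed 4 times the tag density of the 10 kb around it, so a weak peak needs more tags where that background is higher. The headers give a false discovery rate of 0.001 (0.05 in the methods) and fragment lengths of 200 bp in controls and 144 bp under tazemetostat, which cannot be told apart from the treatment.

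The deposited tag count is a signal normalised to 10 M mapped tags, the deposited score a count of tags and the deposited fold over the local background a ratio. The deposited p-value was not used. Signal times mapped tags came out whole (tolerance 0.25) in 100% of peaks, and these counts entered edgeR 4.0.16 and DESeq2 1.42.0.

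Peaks sharing 1 bp were merged, and GENCODE 44 gave genes. limma 3.58.1 (pseudocount 1, no block) was fitted to the 15383 regions with 1 peak in each library. Group means were compared with exact permutation tests. Named regions were, per chromosome, the 3 highest shared, 2 highest tazemetostat-only, the highest control-only and the 2 largest rises and falls, with a set of genes from 10 lists and the 3 in each list with the highest tag counts at a start. Members and lists were chosen with earlier results of these data known. Deviations of same-numbered libraries from their group means were uncorrelated (r = -0.0025), which cannot show whether the samples were paired. Alternatives are given at the end. Intervals cover counting error only. Some genes and sequences that the naming rule covers are not reported here.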

Additional observations from a re-analysis of the deposited data

Results flagged for a closer look

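Peaks on alternate and unplaced contigs named for chromosomes 14, 17 and 20 were left out of the regions above, since they cannot be placed on the chromosomes. These 35 contigs held 134 and 167 control peaks and 300 and 286 tazemetostat peaks, a mean of 293 against 150.5. They are listed because they lie outside the main measurement and were more numerous than in the controls. The whole lists rose alongside, from 26133 and 34768 peaks to 55313 and 54157, and no difference from that rise was tested. The contig with most peaks, of chromosome 17, held 21, 41, 76 and 69.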

How the results depend on the processing

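Leaving out 1 library at a time, the difference in the share of peaks on the 3 chromosomes ranged from -1.96 to -0.486 percentage points, peaks per Mb from 1.41 to 1.51 times the other autosomes, peaks per coding gene from 0.949 to 1.02 times, the tag count ratio from 1.11 to 1.14, the implied background ratio from 1.17 to 1.18, the difference in the tazemetostat-only share from -4.55 to -1.69 percentage points, regions called higher from 0 to 916, regions called lower from 0 to 13, and the difference in median change from -0.07 to -0.02. The difference in the tazemetostat-only share was -2.36 percentage points with all libraries, -4.55 without control replicate 2 and -4.38 without tazemetostat replicate 1. Peaks per coding gene were 0.991 times those of the other autosomes with all libraries, 1.00 without tazemetostat replicate 1 and 1.02 without tazemetostat replicate 2. With a local fold of at least 8, peaks per Mb fell to 0.886 times and peaks per coding gene to 0.596 times the other autosomes, and the tag count ratio to 1.02. With equal numbers of peaks, peaks per coding gene rose to 1.07 times and the tazemetostat-only difference turned to 0.818. Without chromosomes 2, 6 and 16, also gained in this line, peaks per coding gene were 1.06 times and the implied background ratio was 1.22, which was 1.16 in intergenic peaks only. Against autosomes near in gene density peaks per Mb were 1.27 times. Counts of regions called higher and lower were 0 and 0 with centring, 2 and 20 with TMM scaling, 1 and 12 with DESeq2, and 539 and 2 per kb. With a replicate block, 532 were called higher and 3 lower, although whether the replicate numbers pair the samples is not known. Without chromosome 14 below 40 Mb, chosen after seeing the data, the tag count ratio was 1.10. The causes were not tested. With 2 libraries a group, no permutation p can go below 0.333.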
